A study of Rattus norvegicus with 10 samples.

Results

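Voltage-gated calcium channels open when a neuron depolarises and let calcium into the cell, where it triggers transmitter release, firing patterns and gene regulation. Each channel is built around a pore-forming alpha1 subunit, which sets its type, and high-voltage-activated channels also carry an alpha2delta subunit, which brings the channel to the membrane and is the binding site of the antiepileptic drugs gabapentin and pregabalin, and a beta subunit inside the cell. In the hippocampus, P/Q-type and N-type channels serve transmitter release, L-type and R-type channels are found mainly on cell bodies and dendrites, and T-type channels open near rest and support burst firing.

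The set of genes was named by symbol and held 10 subunits, 8 alpha1 and 2 alpha2delta. A row of the table was matched by its RefSeq accession for 9 of them, with 12 rows among the 32041 RNA records of the table, and for each symbol the row with the highest mean count was taken. No row was matched to Cacna1d, an L-type subunit, which is not analysed here. All 9 remaining genes passed the filter on low counts. Their counts ran from 107 for Cacna2d2 in sham rat 5 to 8734 for Cacna1a in TBI rat 4.

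The messenger RNA came from 10 adult male Sprague-Dawley rats, each a separate library. The 5 TBI rats received lateral fluid percussion, a pressure pulse of 3.32 atm on the exposed dura over the left parietal lobe, and the 5 sham rats had the same anaesthesia and craniectomy without the pulse, so both groups share the surgery. The left dorsal hippocampus was taken 3 months later and the piece with CA3 and dentate gyrus was used. The methods of the study state that TBI rats had no EEG monitoring, so which of them were epileptic is not known. In bulk tissue, fewer cells of a type and less RNA per cell cannot be told apart.

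Libraries held 23425817 to 31671838 counts on RNA records. Ribosomal RNA took 23.8% to 59.0% of them in sham rats and 12.5% to 25.5% of them after TBI (exact permutation test, two-sided, p = 0.0238), with the highest shares in sham rats 4 and 5, which leaves those libraries the fewest counts on other genes. Levels are given below as CPM, read counts per 1e6 counts after TMM scaling, a scaling that assumes most genes are alike between libraries. SE is the standard error of the fit. Markers of the tissue were present: Prox1 and C1ql2, which mark dentate granule cells, passed the filter, and so did 4 of 6 listed CA3 genes, while the granule cell gene Tdo2 and the CA3 gene Iyd were too low. The summed level of 5 dentate granule genes was 68.9 CPM in sham rat 1 and 185 to 212 CPM in the other sham rats, and 86.8 to 209 CPM in TBI rats, lowest in TBI rat 5. The 5 listed CA1 genes, which mark the neighbouring field, summed to 67.9 to 146 CPM in sham rats and to 48.0 to 502 CPM in TBI rats. Of 8 listed GABAergic interneuron genes all had values lower in TBI, 3 of them at an unadjusted p under 0.05, which 3% of all rows met in that direction, and their sum was 191 to 266 CPM in sham rats and 139 to 225 CPM in TBI rats. Of 6 listed astrocyte genes 2, Gfap and Aldh1l1, had values higher in TBI at an unadjusted p under 0.05, as did 1 of 6 microglia genes, Aif1, where 4.89% of all rows did. The astrocyte sum was 1442 to 2265 CPM in sham rats and 1605 to 3070 CPM in TBI rats, and Gfap was above every sham rat in 4 of 5 TBI rats. None of these markers passed the adjusted threshold in edgeR's test. The part of these tissue differences in the results below was not tested.

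The comparison asked whether transcripts of calcium channel subunits differ between TBI and sham rats. They did not differ at the threshold of the test: 0 of the 9 genes passed 0.05 in the quasi-likelihood test of edgeR after adjustment over 22431 rows, and their smallest adjusted p was 0.615. Among all rows this threshold called 0%. At an unadjusted p under 0.05 there was 1 of the 9, Cacna1c, lower in TBI, against 7.89% of all rows and 3% lower. By the fit and by group means, values were lower in TBI for 6 genes and higher for 3. Group medians went the other way for Cacna1a, at 225 CPM in sham rats and 219 CPM in TBI rats. They also did for Cacna1i, at 69.0 and 75.6 CPM, and for Cacna2d2, at 6.83 and 6.86 CPM. The median log2 fold change, TBI over sham, was -0.11 over the 9 genes and -0.01 over all rows. Of 8 listed neuron genes, 7 had values lower in TBI and 1 higher, with a median of -0.07. None of those 8 had an unadjusted p under 0.05 in edgeR's test. Whether the subunits follow the neuron genes was not tested. Sham and TBI values overlapped in all 9 subunits, while 0.923% of all rows had groups that did not overlap. DESeq2, limma with voom, and edgeR's exact and likelihood ratio tests also called 0 of the 9 at the adjusted threshold.

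**Figure D1:**
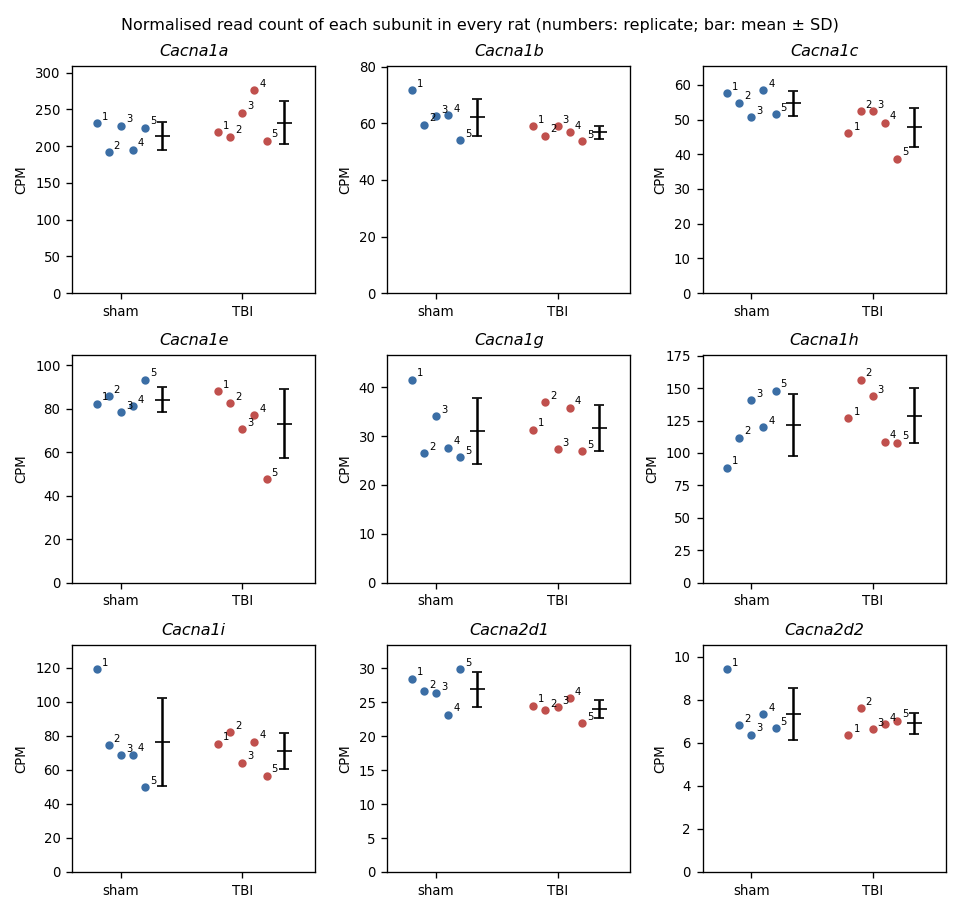
Level of each of 9 calcium channel subunits in CPM (vertical axis, from 0) in 5 sham rats (blue) and 5 TBI rats (red). Digits give the replicate and the black bars mean ± SD. The groups overlap in every panel, sham rat 1 stands highest for Cacna1i at 119 CPM, and TBI rat 5 lowest for Cacna1e at 47.5 CPM.

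Cacna1a encodes the pore of P/Q-type channels, the main calcium source for release at many central synapses. Its level was 231, 192, 228, 195 and 225 CPM in sham rats 1 to 5 and 219, 213, 245, 276 and 207 CPM in TBI rats 1 to 5. TBI rats 3 and 4 lay above every sham rat and the other TBI rats lay within the sham range. The means were 214 CPM ± 19.2 (SD, n = 5) in the sham group and 232 CPM ± 28.6 (SD, n = 5) in the TBI group. The difference, TBI over sham, was 0.12 on the log2 scale (SE 0.0912, edgeR adjusted p = 0.798). The 95% interval ran from a 0.949-fold to a 1.24-fold level. Without TBI rat 4 the log2 value was 0.05.

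Cacna1b encodes the pore of N-type channels, which share the control of release with P/Q-type channels. It stood at 71.8, 59.6, 62.6, 62.9 and 54.0 CPM in sham rats 1 to 5 and at 59.0, 55.6, 59.0, 57.0 and 53.6 CPM in TBI rats 1 to 5. All 5 TBI rats were below the sham median of 62.6 CPM, but only TBI rat 5 was below the lowest sham rat. This gave a log2 fold change of -0.13 (SE 0.0791, edgeR adjusted p = 0.726). The spread over rats was 10.4% of the mean in sham rats and 4.02% in TBI rats, where counting error alone gives 2.24%. A second record of this gene, with 33.1% ± 2.07 (SD, n = 5) of the counts of both records after sham surgery and 33.9% ± 2.30 (SD, n = 5) after TBI, had -0.09 on the log2 scale (SE 0.107). The records are isoforms that share reads, so the ratio between them is uncertain.

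Cacna1e encodes the pore of R-type channels. Its level was 82.3, 85.6, 78.4, 81.1 and 93.4 CPM in sham rats 1 to 5 and 88.0, 82.7, 70.5, 77.0 and 47.5 CPM in TBI rats 1 to 5. Sham rats were close to each other, with a spread of 6.87% of the mean, and TBI rats were not, with a spread of 21.5%. On the log2 scale TBI differed from sham by -0.20 (SE 0.127, edgeR adjusted p = 0.739). TBI rat 5 set much of it: without that rat the value was -0.08. Without TBI rat 1, the highest of the TBI rats, it was -0.28, with an unadjusted p of 0.0466 and an adjusted p of 0.651 in edgeR's test.

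Cacna1c encodes the pore of the L-type channel that couples calcium entry to gene regulation in neurons, and it is also the L-type channel of heart and smooth muscle. It stood at 57.7, 54.8, 50.8, 58.5 and 51.5 CPM in sham rats 1 to 5 and at 46.1, 52.3, 52.4, 49.1 and 38.7 CPM in TBI rats 1 to 5. All 5 TBI rats lay below the sham median of 54.8 CPM, and 3 of them, rats 1, 4 and 5, below every sham rat. The means were 54.6 CPM ± 3.49 (SD, n = 5) and 47.7 CPM ± 5.68 (SD, n = 5), a log2 fold change of -0.19 (SE 0.0871). The unadjusted p was 0.0379 and the adjusted p 0.615 in edgeR's test. When each rat was left out in turn the unadjusted p was from 0.0229 to 0.121 and stayed under 0.05 in 5 of 10. It was lost without sham rat 1, 2 or 4 and without TBI rat 1 or 5, and without TBI rat 5 the log2 value was -0.13. Smooth muscle and pericytes are a source of Cacna1c outside neurons. Their 6 listed genes summed to 37.4 to 47.9 CPM in sham rats and 37.2 to 59.5 CPM in TBI rats. All 6 had values higher in TBI. Of these, 1, Tagln, had an unadjusted p under 0.05 in edgeR's test, which 4.89% of all rows met in that direction. The part of these cells in the level of Cacna1c was not tested.

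T-type channels have 3 pore subunits, Cacna1g, Cacna1h and Cacna1i, and the 3 differed more between rats than between groups. Cacna1g was 41.6, 26.5, 34.1, 27.6 and 25.7 CPM in sham rats 1 to 5 and 31.3, 37.0, 27.4, 35.8 and 26.9 CPM in TBI rats 1 to 5. All TBI rats lay within the sham range. Between groups it differed by 0.02 on the log2 scale (SE 0.133, edgeR adjusted p = 0.988), and the sign was negative in 5 of 10 fits with a rat removed.

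Cacna1h was 88.6, 112, 141, 119.7 and 148 CPM in sham rats 1 to 5 and 127, 157, 144, 109 and 108 CPM in TBI rats 1 to 5. Only TBI rat 2 lay outside the sham range. Its log2 fold change was 0.08 (SE 0.137, edgeR adjusted p = 0.919).

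Cacna1i was 119 CPM in sham rat 1, 74.5, 68.8 and 69.0 CPM in sham rats 2 to 4, and 50.0 CPM in sham rat 5. The TBI rats, at 75.6, 82.4, 64.3, 76.7 and 56.6 CPM, all lay inside that range. The spread was 33.8% of the mean in sham rats, against 2.53% that counting error alone gives, and was the widest of the 9 genes. The groups differed by -0.11 on the log2 scale (SE 0.205, edgeR adjusted p = 0.933). The 95% interval, from a 0.677-fold to a 1.27-fold level, is the widest of the 9, and without sham rat 1 the log2 value was 0.11. In sham rat 1 the high Cacna1i and the low Cacna1h went with the lowest dentate granule sum of all rats, given above. In sham rat 5 a low Cacna1i and a high Cacna1h went with the highest dentate granule sum, 212 CPM. TBI rat 5 also had a low dentate granule sum, but its Cacna1i was low.

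Cacna2d1 and Cacna2d2 encode alpha2delta subunits. Cacna2d1 was 28.5, 26.6, 26.4, 23.2 and 29.9 CPM in sham rats 1 to 5 and 24.5, 23.9, 24.3, 25.6 and 21.9 CPM in TBI rats 1 to 5. All TBI rats were below the sham median of 26.6 CPM, and TBI rat 5 was below every sham rat. TBI over sham was -0.16 on the log2 scale (SE 0.0815), with an unadjusted p of 0.0578 and an adjusted p of 0.642 in edgeR's test. Its further records, with log2 fold changes of -0.19 and -0.23, had unadjusted p-values of 0.0526 and 0.0202, and edgeR adjusted p-values of 0.634 and 0.555. These 3 records share reads and are not independent. With all records of a gene summed, Cacna2d1 had an unadjusted p of 0.0215 and an adjusted p of 0.558 in edgeR's test. Reads that the records share may count more than once in that sum, so its p is uncertain.

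Cacna2d2 was 9.43, 6.83, 6.37, 7.34 and 6.69 CPM in sham rats 1 to 5 and 6.35, 7.61, 6.63, 6.86 and 7.02 CPM in TBI rats 1 to 5. Sham rat 1 was again the highest, and TBI rats spread by 6.86% of their mean, where counting error alone gives 6.44%. Its log2 fold change was -0.09 (SE 0.115, edgeR adjusted p = 0.886). The 95% interval ran from a 0.794-fold to a 1.11-fold level. Sham rats spread by 16.7% of their mean, where counting error alone gives 7.89%.

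The make-up of the pore subunits within a library does not depend on how libraries are scaled. Whether this make-up goes with the ribosomal RNA share was not tested. With that share as a covariate, the log2 fold changes of the pore genes moved unequally. Cacna1i went from -0.11 to -0.33, Cacna1h from 0.08 to 0.21 and Cacna1e from -0.20 to -0.09. The ribosomal RNA share differed between the groups, so such a fit cannot tell it apart from injury. Shares are of counts and not per length, so they compare rats, not genes. Cacna1a took 33.2% ± 1.42 (SD, n = 5) of the counts on the 7 alpha1 genes after sham surgery and 36.3% ± 3.67 (SD, n = 5) after TBI. It was 33.4%, 31.7%, 34.4%, 31.8% and 34.8% in sham rats 1 to 5 and 33.9%, 31.3%, 37.0%, 40.6% and 38.5% in TBI rats 1 to 5, so 3 TBI rats were above every sham rat and 1 below. Cacna1c took 8.50% ± 0.780 (SD, n = 5) and 7.43% ± 0.351 (SD, n = 5), and Cacna1e 13.1% ± 1.23 (SD, n = 5) and 11.3% ± 1.79 (SD, n = 5). Single rats set much of these differences: TBI minus sham was 3.07 percentage points for Cacna1a and 1.99 without TBI rat 4, and -1.79 for Cacna1e and -1.16 without TBI rat 5. For each of the 7 genes the groups overlapped in this share.

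Among the T-type genes, sham rats 1 and 5 lay at opposite ends of the sham range. Cacna1h took 12.8% in sham rat 1 and 22.8% in sham rat 5, while Cacna1i took 17.2% and 7.72% in the same rats. In contrast, TBI rat 2 had the highest share of the TBI rats for both, 23.0% for Cacna1h and 12.1% for Cacna1i. The 3 T-type genes together took 34.5% to 36.7% in all sham rats, a spread of 0.853 percentage points (SD, n = 5) around 35.5%. In TBI rats they took 32.5% to 40.6%, with a mean of 36.1% ± 2.92 (SD, n = 5), highest in TBI rat 2 and lowest in TBI rat 4. These shares are described without a test.

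**Figure D2:**
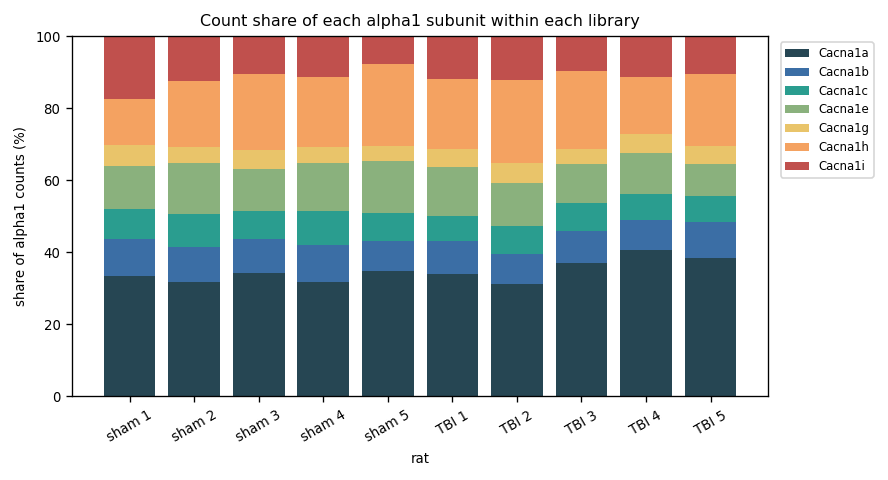
Share of the counts on 7 alpha1 genes taken by each gene (vertical axis, percent) in each of the 10 rats (horizontal axis). Cacna1i takes 17.2% in sham rat 1 and 7.72% in sham rat 5, and Cacna1a runs from 31.3% in TBI rat 2 to 40.6% in TBI rat 4.

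Single rats stood out across the family. TBI rat 5 had the lowest level of the TBI rats in 8 of the 9 genes, all but Cacna2d2, while it was lowest among TBI rats in 23% of all rows tested. This library had the lowest ribosomal RNA share of all, 12.5%, and the second lowest dentate granule sum. Whether either goes with its low levels was not tested. Sham rat 1, with the lowest dentate granule sum, had the highest level of the sham rats in 5 of the 9 genes, against 22.9% of all rows. These were Cacna1a, Cacna1b, Cacna1g, Cacna1i and Cacna2d2. Some of the 9 genes are correlated over rats, as given below, so these counts are not of separate instances. On the log2 scale, TBI rat 5 deviated from the gene mean over 10 rats by -0.71 for Cacna1e and -0.39 for Cacna1c, and sham rat 1 by 0.73 for Cacna1i and -0.48 for Cacna1h.

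**Figure D3:**
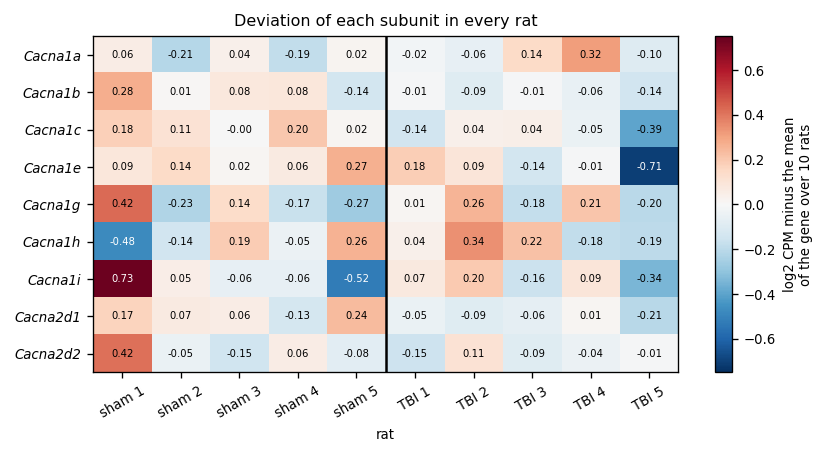
Deviation of each gene in each rat, as log2 CPM minus the mean of the gene over 10 rats (colour and printed value), for sham rats (left of the line) and TBI rats (right). The largest deviations are 0.73 for Cacna1i in sham rat 1 and -0.71 for Cacna1e in TBI rat 5.

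Of the 36 pairs of these genes, the pair with the highest Pearson correlation of log2 CPM over the 10 rats was Cacna1g with Cacna1i, at 0.829, and it was 0.843 after group means were removed. Cacna1b with Cacna1i had 0.768, Cacna1i with Cacna2d2 0.738 and Cacna1c with Cacna1e 0.711. Cacna1h went the other way from several of them, with -0.540 against Cacna1i and -0.576 against Cacna2d2. Each of these values is over 10 libraries of bulk tissue that share their tissue make-up gene by gene, and sham rat 1 is an extreme point in those with Cacna1i, so they describe these rats only. Outside the family, the closest patterns among 8271 symbols of at least 5 CPM were those of Tmem114 for Cacna1a (r = 0.924), Glg1 for Cacna1c (r = 0.946), Klhl11 for Cacna1e (r = 0.986), Celsr2 for Cacna1g (r = 0.937) and Golgb1 for Cacna2d1 (r = 0.880), over 10 rats. Each is the highest of its 8271 candidates and was picked for that.

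The channel family has further subunits, of which 14 of 16 listed genes were tested. None passed the adjusted threshold in edgeR's test, and at an unadjusted p under 0.05 there was 1, Cacng4, with a value higher in TBI, where 4.89% of all rows were higher. The median log2 fold change of these 14 was -0.0018. The beta subunits, which fold against the pore subunit inside the cell, had log2 fold changes of -0.02 for Cacnb1, -0.08 for Cacnb2, 0.03 for Cacnb3 and -0.14 for Cacnb4, none with an unadjusted p under 0.05. Cacna2d3, another alpha2delta gene, had -0.07 (SE 0.0834), and Cacna2d4 had at most 5 counts in any rat and was not tested. The pore genes of retina and skeletal muscle, Cacna1f and Cacna1s, had at most 18 counts in any rat, and the muscle gene Cacng1 had at most 5.

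Most gamma genes named Cacng encode TARPs, which traffic AMPA receptors rather than form part of calcium channels. Cacng4 was 13.6 CPM ± 0.927 (SD, n = 5) in the sham group and 16.1 CPM ± 1.82 (SD, n = 5) in the TBI group. On the log2 scale it differed by 0.24 (SE 0.0948), with an unadjusted p of 0.0208 and an adjusted p of 0.555 in edgeR's test. The values of Cacng2, stargazin, and Cacng8, the main hippocampal TARP, were 0.21 (SE 0.171) and 0.11 (SE 0.0985) on the log2 scale. Cacng3 and Cacng7 had -0.04 and 0.03. Cacng5 was 2.98 CPM ± 1.71 (SD, n = 5) in TBI rats and had 0.42 (SE 0.542), and Cacng6, with at most 27 counts in any rat, had -0.01.

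Of 17 tested genes that bind or are coupled to these channels, 0 passed the adjusted threshold in edgeR's test and 1 had an unadjusted p under 0.05, a share near the 7.89% of all rows. The 1 was Kcnma1, the pore of the BK potassium channel that opens beside calcium channels, with 36.6 CPM ± 2.26 (SD, n = 5) in the sham group and 31.7 CPM ± 4.26 (SD, n = 5) in the TBI group. On the log2 scale this was -0.21 (SE 0.0918, unadjusted p = 0.0343, edgeR adjusted p = 0.604).

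Of 12 tested genes for calcium extrusion and release from stores, 0 passed the adjusted threshold in edgeR's test and 1 had an unadjusted p under 0.05, again near the 7.89% of all rows. The 1 was Ryr2, the ryanodine receptor that releases calcium from the endoplasmic reticulum. Ryr2 was 187, 189.7, 154, 178 and 188 CPM in sham rats 1 to 5 and 157, 139, 146, 159 and 124 CPM in TBI rats 1 to 5. All TBI rats were below the sham median of 187 CPM, and 3 were below every sham rat. It differed by -0.31 on the log2 scale (SE 0.0854), with an unadjusted p of 0.00193 and an adjusted p of 0.478 in edgeR's test. The plasma membrane pumps Atp2b1, Atp2b2, Atp2b3 and Atp2b4 had log2 fold changes of 0.04, -0.09, -0.11 and -0.31 (SE 0.478 for Atp2b4), with no unadjusted p under 0.05.

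**Figure D4:**
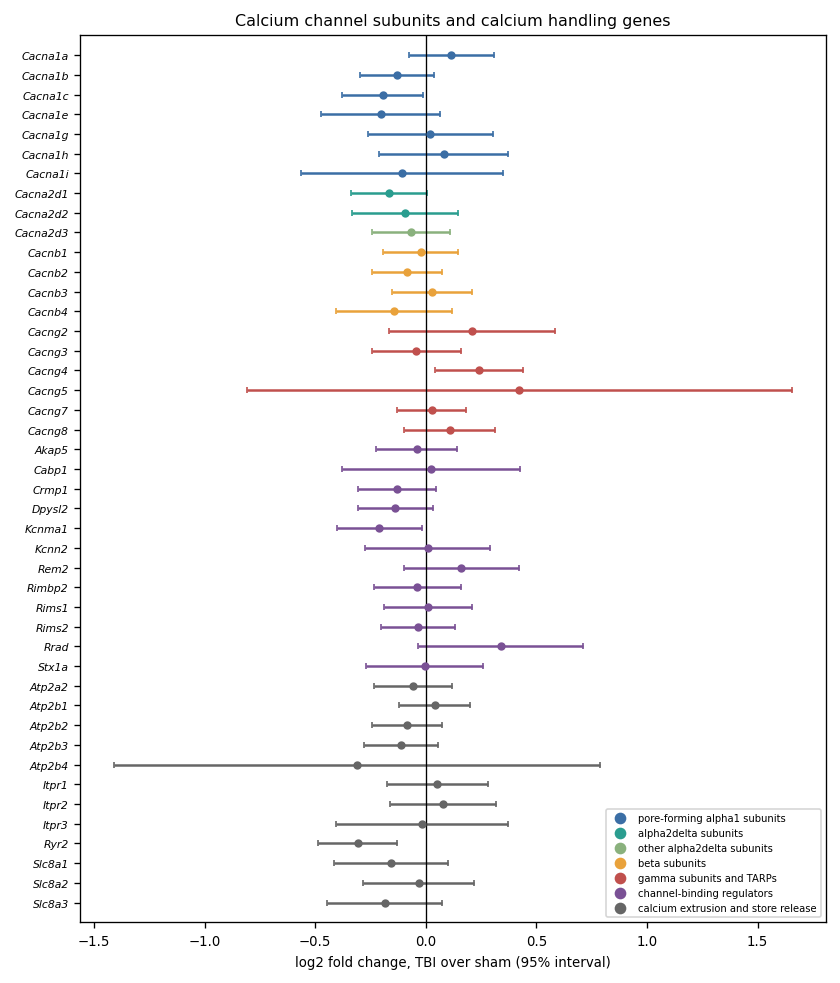
Log2 fold change of TBI over sham (horizontal axis) with its 95% interval, for the calcium channel subunits and for most of the listed regulators and calcium handling genes that had at least 2 CPM in either group. Among these genes only the intervals of Cacna1c, Cacng4, Kcnma1 and Ryr2 leave out 0, and none passed the adjusted threshold.

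How the libraries were scaled set the sign of several small differences. With scaling by total counts, which counts ribosomal RNA as part of the library and raised the median log2 fold change of all rows to 0.50, all 9 genes had values above 0, and relative to that median 7 of the 9 lay below it. With total counts outside ribosomal RNA the median of all rows was 0.14, and 6 of the 9 lay below it. Under this scaling the 1 gene with an unadjusted p under 0.05 was Cacna1a, with a log2 fold change of 0.26 and an unadjusted p of 0.0405 (edgeR adjusted p = 0.362), and not Cacna1c. In that fit 12.9% of all rows had an unadjusted p under 0.05. With the ribosomal RNA share as a covariate, 0 of the 9 had an unadjusted p under 0.05, against 4.42% of all rows. Cacna1c then had a log2 fold change of -0.17.

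**Figure D5:**
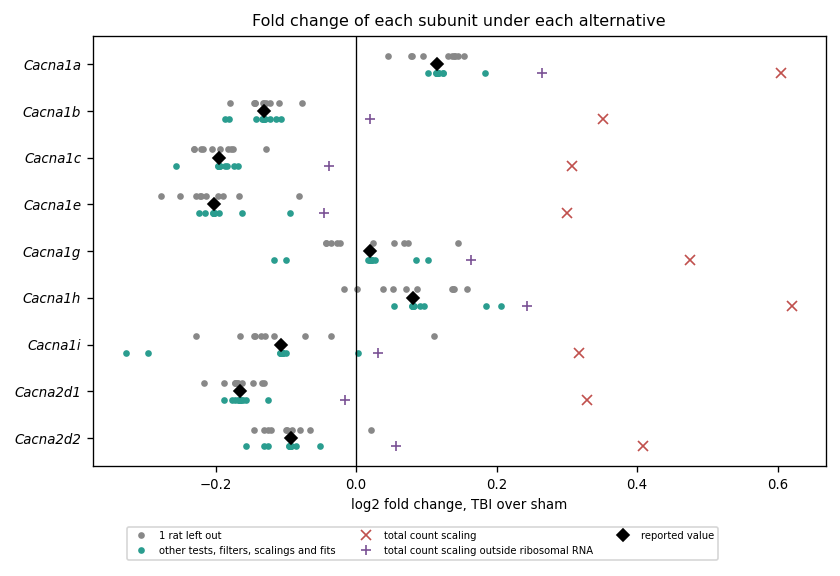
Log2 fold change of each of 9 subunits (horizontal axis) as reported (black), with 1 rat left out (grey), with other tests, filters and fits (green), and with scaling by total counts (red crosses) or by total counts outside ribosomal RNA (purple plus signs). Total count scaling moves all 9 genes above 0, and without it Cacna1a stays above 0 while Cacna1c, Cacna1e and Cacna2d1 stay below 0.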

How the data were processed

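Single reads of 36 bases from poly-A selected RNA of 10 rats were aligned by the authors with BWA to the rat genome rn4. The deposited values are raw read counts, one row for each RefSeq RNA record, without normalization or pooling. The methods name Ensembl transcripts, while the rows are RefSeq records, and this was not settled here. The 2 rows that are no RNA record, an empty entry and unmapped reads, were left out. Rows were named from RefSeq genes of the assembly GRCr8, used for names only, which gave a symbol to 54.2% of records. Counting was not stated to use strand.

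As in the study, rows under the 30th percentile of totals (fewer than 44 counts) were dropped, leaving 22431. All 10 deposited libraries were used. For the mRNA of this model, the methods of the study list fewer control rats than the 5 sham libraries, without naming them. The study's own comparison may therefore rest on a different set of libraries. TBI and sham rats were compared in edgeR 4.0.16 under R 4.3.3 by its robust quasi-likelihood test with TMM factors, with Benjamini-Hochberg adjustment over all rows. Intervals use its standard error. Counting error is the mean of 1 over the square root of the count. Correlations used log2 CPM with a prior count of 2. Alternatives used DESeq2 1.42.0 and limma 3.58.1, other size factors and filters, summed records, a ribosomal covariate, and fits without single rats.

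The subunits and gene lists were chosen with earlier results of these data known. Named genes were all 9 subunits, the further subunits, and regulators or calcium handling genes with an unadjusted p under 0.05; pump genes were named after their values were seen. A further 3 regulators count among those tested but are not reported here. The p-values of edgeR weigh the difference between groups against the spread between rats. They do not separate injury from the ribosomal RNA share, which also differed between the groups. Figures were drawn with matplotlib 3.10.9.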

Additional observations from a re-analysis of the deposited data

How the results depend on the processing

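The number of the 9 subunits past an adjusted p of 0.05 was 0 in each fit run. The number with an unadjusted p under 0.05 was 1 as reported, against 7.89% of all rows. It was 0 with voom, with total count scaling, with the ribosomal covariate and without sham rats 4 and 5. In those fits 8.22%, 16.9%, 4.42% and 5.6% of all rows had such a p, in that order. With records summed per gene the number was 2, Cacna1c and Cacna2d1, against 7.88% of all rows. Shared reads of Cacna2d1 records may count more than once there. Over the 10 fits with a rat removed the number was 0 to 2, and the share of all rows 5.17% to 11.4%. Those with 0 were the fits without sham rat 1, sham rat 2 or TBI rat 5. The one with 2 was without sham rat 5, where 7.13% of all rows had such a p. The median log2 fold change of the 9 was 0.35 with total count scaling, 0.0315 with total counts outside ribosomal RNA, and -0.14 to -0.02 with 1 rat left out.

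With total count scaling the log2 fold changes of Cacna1b, Cacna1c, Cacna1e, Cacna1i, Cacna2d1 and Cacna2d2 turned to 0.35, 0.31, 0.30, 0.32, 0.33 and 0.41, all without passing. With total counts outside ribosomal RNA, Cacna1b, Cacna1i and Cacna2d2 turned to 0.0202, 0.0315 and 0.0572. Cacna1i was 0.0027 with voom. Cacna1g turned to -0.12 with the ribosomal covariate and -0.10 without sham rats 4 and 5. With 1 rat left out, Cacna1g ran from -0.0430 to 0.15, Cacna1h from -0.0178 to 0.16, Cacna1i from -0.23 to 0.11 and Cacna2d2 from -0.15 to 0.0210. Cacna1a kept a positive sign in each fit run.

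Over all rows, 0 passed the adjusted threshold as reported, 3 with DESeq2, 92 with total count scaling and 0 to 12 with 1 rat left out (12 without TBI rat 3, 5 without sham rat 3). Rows with an unadjusted p under 0.05 numbered 1769, 3788 with total count scaling, 2902 with total counts outside ribosomal RNA, 992 with the ribosomal covariate and 1162 to 2571 with 1 rat left out, 1162 being without sham rat 2. For these shifts the cause was not tested. Without sham rat 3 and TBI rat 3 together, 319 rows passed the adjusted threshold, but 0 of the 9 subunits, with Cacna1c at -0.26 (edgeR adjusted p = 0.296). Earlier results had shown these rats to lie nearer the other group, so that count follows from a choice made on the outcome and is no evidence of a difference. No paired analysis was possible because the labels number the rats from 1 to 10 and pair none. With 5 rats a group, the standard errors of 0.0791 to 0.205 leave log2 changes of the size seen here undecided.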

Other observations

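In the 18 groups of 5 rats formed by the 9 subunits, 0 held a rat that Dixon's criterion at 95% marks as an outlier, where chance marks about 5% of groups. Cacna1i in sham rats ran from 50.0 CPM in sham rat 5 to 119 CPM in sham rat 1, with the other 3 between 68.8 and 74.5 CPM.

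Sham rats were tighter than TBI rats for Cacna1c, with a spread of 6.39% against 11.9% of the mean, for Cacna1e, with 6.87% against 21.5%, and for Cacna1a, with 8.95% against 12.3%. TBI rats were the tighter group for the other 6 genes, among them Cacna1b with 4.02% against 10.4% and Cacna2d1 with 5.59% against 9.45%. These differences in spread were not tested.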
